A study of Mus musculus with 21 samples.

Results

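ATAC-seq, which cuts accessible DNA with a transposase and so maps open chromatin, was compared between the SI crypt and the SI villus of the mouse. The comparison rests on 6 of the 21 samples analysed, 3 crypt and 3 villus libraries, together with a list of peaks from the pooled alignments of each compartment. The labels give the mice as C57BL/6, 90 days old, with the epithelium taken from the duodenum, and the methods of the study give them as untreated animals on chow. The protocol that the labels share between assays also describes an injection of 1,25(OH)2D3 at 10 ng/g for 1 h, which the methods tie to the mice used for VDR ChIP-seq. Crypts and villi were released with EDTA and separated by a strainer that crypts pass and villi do not, so each preparation holds all epithelial cell types of its compartment and no sorted cell. Neither the labels nor the methods tie a library to a mouse, and the spread between libraries may be partly technical. Each site below was placed in the mm9 genome and called present in a library where the library had a peak there.

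The intestinal crypt holds the stem cells, their dividing progeny and, in the small intestine, the Paneth cells. Cells leave the crypt, stop dividing and mature on the villus, where most are enterocytes that digest and absorb nutrients until they are shed at the tip. Open chromatin marks promoters and distal enhancers that transcription factors can reach, and factors such as CDX2, HNF4A and GATA4 are known to act in both compartments. Distal sites are those farther than 1 kb from the transcription start site (TSS) of any protein-coding gene.

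The motif counts at distal sites rest on windows of 200 bp at peak summits, and 9 of these are shown as examples of either compartment. The first 4 windows belong to the sites near Ccdc73, Saa4, Cryzl1 and Tmem229b, which had the largest villus excess of all distal sites within 10 kb of a TSS. They lie at chr2:104704740-104704939, chr7:53990385-53990584, chr16:91710529-91710728 and chr12:80088831-80089030, the first pair intergenic and the second pair in introns. Capitals mark matches to the 24 motifs searched, and each of these windows holds an AP-1 match (TGANTCA, the site bound by FOS and JUN dimers). Cryzl1 also holds an HNF4A match. All are read 5′ to 3′ on the plus strand.
Ccdc73: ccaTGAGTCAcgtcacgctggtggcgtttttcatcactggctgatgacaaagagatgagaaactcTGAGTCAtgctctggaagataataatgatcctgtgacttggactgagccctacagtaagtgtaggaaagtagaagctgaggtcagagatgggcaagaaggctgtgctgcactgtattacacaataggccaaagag
Saa4: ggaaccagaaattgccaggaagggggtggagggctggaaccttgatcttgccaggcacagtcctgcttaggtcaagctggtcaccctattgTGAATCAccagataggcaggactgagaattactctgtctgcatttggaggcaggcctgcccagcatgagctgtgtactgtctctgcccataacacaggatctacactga
Cryzl1: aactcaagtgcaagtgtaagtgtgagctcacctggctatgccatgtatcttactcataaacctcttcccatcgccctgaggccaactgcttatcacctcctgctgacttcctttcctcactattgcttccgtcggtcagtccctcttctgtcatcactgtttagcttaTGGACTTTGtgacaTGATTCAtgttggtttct
Tmem229b: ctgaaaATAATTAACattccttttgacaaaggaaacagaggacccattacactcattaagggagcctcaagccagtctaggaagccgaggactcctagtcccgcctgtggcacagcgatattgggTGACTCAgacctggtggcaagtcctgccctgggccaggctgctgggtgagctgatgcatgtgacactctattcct
Within the same distance, the distal villus-only site of highest pileup lay in an intron near Lpin3, which codes for a lipin family phosphatidate phosphatase, at chr2:160717509-160717708. Its window holds CEBP, FOXA, AP-1 and ASCL/bHLH matches, in that order.
Lpin3: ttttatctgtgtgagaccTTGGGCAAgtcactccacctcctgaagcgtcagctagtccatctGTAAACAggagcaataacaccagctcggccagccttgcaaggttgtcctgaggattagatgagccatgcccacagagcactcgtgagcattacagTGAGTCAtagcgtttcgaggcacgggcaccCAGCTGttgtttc
The 4 distal crypt-only sites of highest pileup within 10 kb of a TSS lay near Plxna2, Iapp, Aim2 and Csda, at chr1:196436764-196436963, chr6:142238385-142238584, chr1:175348991-175349190 and chr6:131346745-131346944. None of these windows holds an AP-1 match. Iapp holds ETS, CEBP, FOXA and IRF matches, Csda a KLF match, and Plxna2 and Aim2 no match to any of the 24 motifs. The windows were not picked alike for the compartments and do not stand for their classes. Among the 10 villus-only sites of highest pileup, those near Lpin3, Cerk and 4930404N11Rik hold an AP-1 match. Those near Rsph3b, Fam102a, Src, Lipe, Bcar3, Eps8l3 and 1300014I06Rik do not. The site of largest distal crypt excess, near Lpin1, holds AP-1 and BACH/MAF matches.
Plxna2: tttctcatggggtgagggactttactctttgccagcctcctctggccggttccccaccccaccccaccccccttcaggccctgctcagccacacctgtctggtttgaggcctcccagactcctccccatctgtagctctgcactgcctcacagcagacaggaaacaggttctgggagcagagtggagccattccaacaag
Iapp: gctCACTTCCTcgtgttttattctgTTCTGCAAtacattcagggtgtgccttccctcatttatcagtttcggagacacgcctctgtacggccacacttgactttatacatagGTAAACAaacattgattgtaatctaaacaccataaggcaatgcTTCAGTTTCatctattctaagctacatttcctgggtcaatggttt
Aim2: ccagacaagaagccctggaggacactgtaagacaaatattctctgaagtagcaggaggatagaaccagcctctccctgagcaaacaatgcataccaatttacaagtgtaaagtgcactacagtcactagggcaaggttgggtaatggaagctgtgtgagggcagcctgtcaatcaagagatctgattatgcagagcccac
Csda: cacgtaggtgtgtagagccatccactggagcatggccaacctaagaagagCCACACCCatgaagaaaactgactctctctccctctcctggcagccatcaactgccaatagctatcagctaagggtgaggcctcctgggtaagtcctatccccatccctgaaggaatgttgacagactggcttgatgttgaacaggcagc

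The crypt and villus libraries shared a core of sites rich in promoters, and each compartment had about as many sites of its own as the other. The crypt libraries held 50574, 34133 and 56488 peaks and the villus libraries 49931, 48245 and 41645. These numbers overlapped between the compartments (two-sided exact permutation test, p = 1.00, n = 3 against 3; the smallest p this design allows is 0.100). Joining all peaks that overlap by 1 bp gave a union of 97190 sites, of which 18.8% lay at promoters. All 6 libraries had a peak at 16329 of them (16.8%), while 21881 sites had a peak in a single crypt library and 19092 in a single villus library. Crypt-only sites, with a peak in 3 of 3 crypt and 0 of 3 villus libraries, numbered 3261, or 3.36% of the union. Villus-only sites numbered 3060, or 3.15% of the union. These counts are descriptions of the lists with no test behind them. In such bulk samples, fewer cells of a type and less open chromatin in each cell cannot be told apart.

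Crypt replicate 2, with the fewest peaks, and villus replicate 3, whose tags the authors extended by 68 bp against 91 to 145 bp in the other 5 libraries, stood apart. Villus replicate 3 had the narrowest peaks (median 125 bp against 168 to 294 bp) and the lowest median pileup (11 against 12 to 25). Pileup is the number of extended tags over a peak's summit. Without crypt replicate 2 there were 6412 crypt-only and 3251 villus-only sites, and without villus replicate 3 there were 3425 and 7089. Without both there were 6726 and 7496.

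With equal numbers of peaks, the 34133 of highest pileup in each library, the union held 63161 sites. Crypt-only sites were then 2976 (4.71%) and villus-only sites 3158 (5.00%), with 13631 sites in all 6 libraries. Libraries of a compartment also resembled each other more than those of the other compartment. The Jaccard index, the share of sites common to a pair of libraries among the sites of either, was 0.475 to 0.506 within crypt, 0.468 to 0.651 within villus and 0.337 to 0.458 between them. Within-compartment pairs exceeded the others by 0.113 on average, and by 0.155 at equal numbers of peaks. Both gave a one-sided exact permutation p of 0.100, the smallest that 10 splits of 3 against 3 libraries allow.

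**Figure D1:**
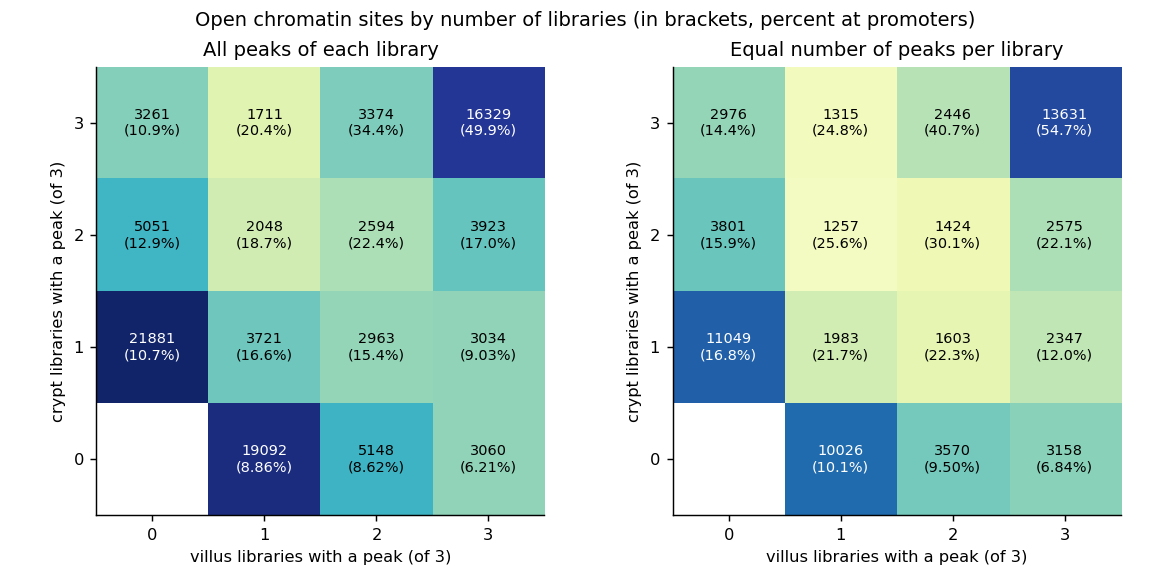
Number of union sites by how many crypt libraries (y axis, of 3) and villus libraries (x axis, of 3) have a peak, with the percent of those sites at promoters in brackets, for all peaks (left) and for equal numbers of peaks per library (right). The corner with all 6 libraries holds 16329 sites, 49.9% of them promoters, and the crypt-only (3261) and villus-only (3060) corners hold 10.9% and 6.21% promoters.

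Promoters made up 49.9% of the sites open in all 6 libraries, 10.9% of the crypt-only sites (355 of 3261) and 6.21% of the villus-only sites (190 of 3060). At equal numbers of peaks the crypt-only share was 14.4% and the villus-only share 6.84%. Of the crypt-only sites 50.3% were intergenic and 36.3% intronic, and of the villus-only sites 43.8% and 46.6%. Distal crypt-only sites had a median distance of 32.8 kb to the nearest TSS, distal villus-only sites 19.2 kb and all distal sites 25.0 kb. The villus-only class thus had the lower promoter share, while its distal sites had the shorter median distance to a gene, and neither was tested.

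The share of a library's peaks at promoters could be compared over libraries. At equal numbers of peaks the 3 crypt libraries lay between 37.6% and 37.9% and the 3 villus libraries between 33.4% and 34.1%, without overlap. Crypt was at 37.7% ± 0.195 and villus at 33.8% ± 0.363 (SD, n = 3 each), a difference of -3.93 points (two-sided exact permutation test, p = 0.100, the smallest possible). With all peaks the shares were 31.6% ± 5.15 and 28.3% ± 0.945, and these ranges overlapped (exact permutation p = 0.500). Crypt replicate 2, with the shortest list, had the highest share there.

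The same contrast between promoters and distal sites appeared in the height of the peaks at the 16329 sites open in all 6 libraries. In the crypt libraries the median pileup of promoters exceeded that of distal sites by 0.44, 0.50 and 0.45 on the log2 scale. In the villus libraries the excess was 0.21, 0.09 and 0.19. All crypt values lay above all villus values, the means differing by -0.30 (two-sided exact permutation test, p = 0.100, n = 3 against 3). Fold enrichment, the pileup over the local background of the library, gave excesses of 0.29, 0.31 and 0.27 in crypt and 0.12, 0.06 and 0.11 in villus, again without overlap.

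Site by site, limma on log2 pileup, with each library centred on its median, called 1241 sites higher in villus (7.60%) and 2089 higher in crypt (12.8%) at an adjusted p under 0.05. Of the 8145 promoters, 1452 were higher in crypt and 116 higher in villus, with a median log2 difference (villus minus crypt) of -0.20. Of the 8184 distal sites, 637 were higher in crypt and 1125 higher in villus, with a median of 0.06. A pileup is not scaled to depth. Its median at these sites was 20, 20 and 22 in the crypt and 42, 33 and 15 in the villus libraries, and a pileup is high or low only beside its library's median. The balance of the calls moved with the scaling. Villus-higher sites were 37.3% of the calls after median centring, 54.2% after quantile normalisation (1323 against 1116) and 47.8% with fold enrichment in place of pileup (638 against 698). Within promoters the crypt-higher calls stayed in the majority under these settings (658 against 141 and 459 against 55). Within distal sites the villus-higher calls did (1182 against 458 and 583 against 239).

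**Figure D2:**
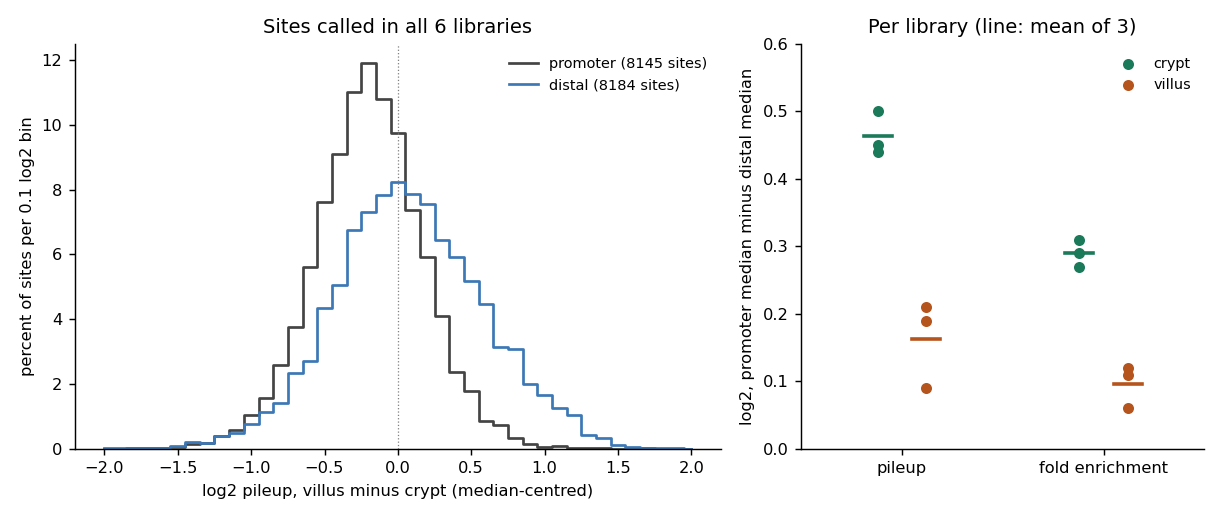
Left, distribution of the log2 difference in pileup (villus minus crypt, each library centred on its median) over 8145 promoter and 8184 distal sites open in all 6 libraries, as percent of sites per bin of 0.1. Right, the promoter median minus the distal median in each library (points) and the mean of 3 libraries (lines), for log2 pileup and log2 fold enrichment. Promoters sit to the left of distal sites, and the 3 crypt libraries lie above the 3 villus libraries on both measures.

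At distal summits the AP-1 motif was the sequence that differed most in percentage points, a measure that gives rare motifs small differences. It was found in 15.6%, 14.9% and 14.1% of the distal peaks of crypt replicates 1 to 3, and in 25.0%, 25.4% and 22.2% of those of villus replicates 1 to 3. The compartments did not overlap, and villus was higher by 9.29 points (p = 0.100 by a two-sided exact permutation test, n = 3 against 3, and 0.185 after Benjamini-Hochberg adjustment over 24 motifs). With equal numbers of peaks the difference was 11.21 points. No motif could pass the threshold in this design. Among all distal union sites 16.3% held the motif, against 41.1% of the distal villus-only sites and 7.05% of the distal crypt-only sites. Among distal sites open in all 6 libraries it was in 44.6% of those higher in villus, 12.4% of those higher in crypt and 23.7% of them all. Without villus replicate 3 the shares were 35.5% and 7.11% of the villus-only and crypt-only sites. The BACH/MAF motif (GCTGAGTCA), which contains the AP-1 letters and so counts some of the same matches, was also higher in villus without overlap (1.95% against 1.27%).

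A further 11 motifs were more frequent in every crypt library than in any villus library, among them CDX2, FOXA, KLF, ETS, CEBP, CREB, ASCL/bHLH, E2F, SP1 and IRF, each with the same exact permutation p of 0.100. Their differences were smaller, from -0.0389 points for E2F (TTTCCCGC) to -1.55 points for CEBP (TTGCNNAA). FOXA (TGTTTAC), the motif of pioneer factors of gut endoderm, stood in 4.65%, 4.92% and 4.58% of crypt and 3.71%, 3.69% and 3.41% of villus distal peaks. It was in 7.74% of crypt-only and 3.21% of villus-only distal sites. CEBP was in 13.1% and 6.52%, and CDX2 (CCATAAA), the motif of the intestinal identity factors, in 7.85% and 4.60%. SP1 (GGGGCGGGG), typical of GC-rich promoters, was in 1.65% and 0.279%. CREB ran the other way at these sites, with 0.241% of crypt-only and 0.348% of villus-only. At distal sites called higher in crypt and higher in villus, ASCL/bHLH was in 13.7% and 15.9% and E2F in 0% and 0.0889%. SP1 was in 7.22% and 0.356% of the same called sites. NFY (CCAATCAG), whose library shares overlapped, was in 5.81% and 1.51% of them. AGATAAG, the GATA motif, and HNF4A (CAAAGTCCA), motifs of enterocyte regulators, overlapped between the compartments in the library shares, with crypt and villus means of 7.99% and 7.99% for GATA and 2.61% and 2.84% for HNF4A. In crypt-only and villus-only distal sites GATA stood at 8.71% and 9.23%, and HNF4A at 1.86% and 2.79%. PPAR/RXR DR1 (CAAAGGTCA) overlapped over the libraries as well, with 1.79% and 3.21% at these sites. GC content at distal summits was 49.3% in crypt and 49.0% in villus and overlapped too (exact permutation p = 0.300). These are matches to fixed letters on both strands, not sites of binding.

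**Figure D3:**
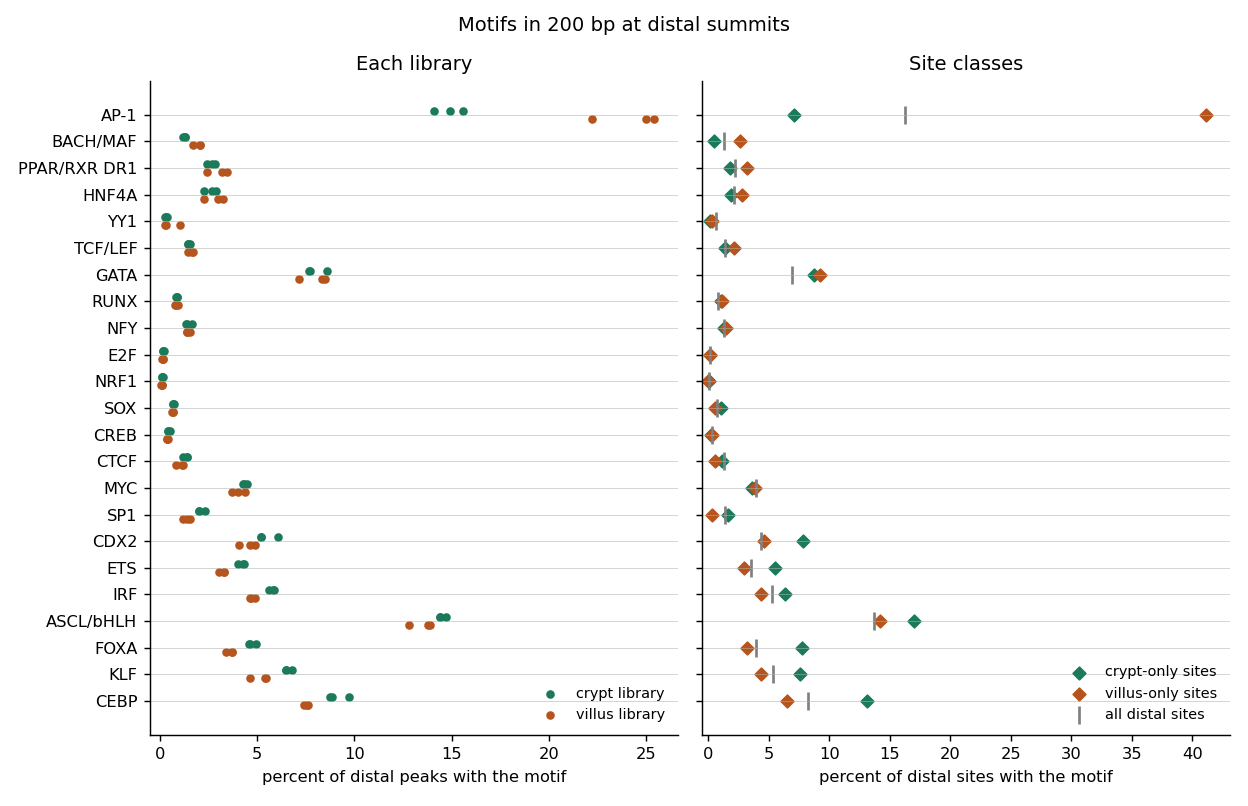
Percent of distal peaks with each of 23 motifs in the 200 bp at the summit, for each crypt and villus library (left), and percent of distal crypt-only, villus-only and all union sites (right, grey bar for all). AP-1 lies at 14.1% to 15.6% in the crypt libraries and 22.2% to 25.4% in the villus libraries, and at 7.05% of crypt-only against 41.1% of villus-only sites.

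The promoters of 7 genes of the AP-1 family could be tested, and none was higher in villus. The genes were picked after the motif shares had been seen. Pileup at the Jun promoter was 41, 49 and 40 in crypt replicates 1 to 3 and 59, 42 and 17 in villus replicates 1 to 3. Relative to the library medians this was higher in crypt (log2 difference -0.72 ± 0.17 SE, limma adjusted p = 0.00218). The Jund promoter, with 54, 48 and 54 against 62, 40 and 23, was also higher in crypt (-0.85 ± 0.16, adjusted p = 2.25e-04), as was that of Atf3 (-0.57 ± 0.16, adjusted p = 0.00922). After quantile normalisation the Jun and Atf3 calls were lost (limma adjusted p up to 0.0501 and 0.313 over the alternatives) and that of Jund was kept. Atf3 also lost the call with fold enrichment, without crypt replicate 1 and without villus replicate 1. Fos (-0.47, adjusted p = 0.102), Fosb (-0.39, adjusted p = 0.234), Fosl2 (-0.06, adjusted p = 0.824) and Batf2 (0.48, adjusted p = 0.152) did not pass, and Batf and Batf3 had no promoter peak in any library. Junb (18, 21 and 25 in crypt, 47 and 39 in villus) and Fosl1 (16, 19 and 22, and 21 and 15) had no promoter peak in villus replicate 3 and were not tested. Of the 7 tested, 3 promoters were higher in crypt and 0 in villus, beside 18.3% and 1.23% of the 8592 promoters of genes tested in all.

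For each site the closest protein-coding TSS was then sought, up to 10 kb away, and its gene taken as the site's gene. Of 22380 protein-coding genes, 947 (4.23%) had a crypt-only site and 996 (4.45%) a villus-only site. Genes whose promoter had a peak in 3 crypt and 0 villus libraries numbered 246 (1.10%), and those with the reverse pattern 43 (0.192%). These peaks could lie anywhere within 1 kb of the TSS, so a promoter can have this pattern without a crypt-only or villus-only site. The lists of genes below are described by counts beside these backgrounds. No list was tested, and sites of 1 gene share that gene. Most lists exceeded 1 or both of these shares, and of the 14 pan-epithelial genes, listed as a check of the tissue, 28.6% had a crypt-only and 21.4% a villus-only site. Of the 8592 tested promoters of genes 18.3% were higher in crypt and 1.23% in villus, and no promoter peak was found in any library for 40.4% of genes.

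Of 29 genes of the crypt stem and progenitor cells, 6 had a crypt-only site and 1 a villus-only site (10 and 2 at equal numbers of peaks). Sox9, a Wnt target of stem and Paneth cells, had a crypt-only site at its promoter with pileups of 21, 17 and 26 in the crypt libraries. Over the whole promoter, no gene of this list, Sox9 included, had peaks in 3 crypt and 0 villus libraries. Axin2, a negative-feedback gene of Wnt signalling, had 14, 14 and 15 at a crypt-only promoter site beside another promoter site open in all 6 libraries. Smoc2, a stem cell gene that codes for a matricellular protein, had a crypt-only site 5.97 kb upstream with 14, 17 and 26. Ephb2, a receptor that positions cells along the crypt, had an intronic crypt-only site with 18, 14 and 24. The other 2 genes were Prom1 and Slc12a2, and while the crypt-only site of Prom1 lay 3.38 kb upstream, its promoter had peaks in villus alone (14, 16 and 8). The villus-only site of this list lay at the promoter of Bmi1, with 38, 33 and 12 in villus. Over the whole promoter, however, Prom1 was the only gene of the list with peaks in 3 villus and 0 crypt libraries.

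The leading stem cell gene Lgr5, the receptor for R-spondins, did not separate the compartments. Its promoter had pileups of 7, 12 and 13 in crypt and 13 and 11 in villus replicates 1 and 2, with no peak in villus replicate 3. Olfm4 and Ascl2 had a promoter peak in 2 crypt libraries and 1 villus library each. Among 10 tested promoters of the stem and progenitor list 2 were higher in crypt, near the 18.3% of all tested promoters. They were those of Znrf3 (-0.61) and Ephb3 (-0.46), and both lost the call after quantile normalisation. Of 15 alternatives, 7 lost the Znrf3 call and 11 the Ephb3 call. An intronic site of Myb, a factor needed by crypt progenitors, was higher in crypt with 25, 31 and 32 against 39, 32 and 10 (-0.74 ± 0.21, limma adjusted p = 0.00930). With fold enrichment or without crypt replicate 2 it did not pass.

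Of 22 tested promoters of cell cycle and DNA replication genes, 7 were higher in crypt and 0 in villus, beside the 18.3% and 1.23% of all tested promoters. At the promoter of Top2a, the topoisomerase of dividing cells, pileup was 28, 38 and 37 in crypt and 34, 17 and 15 in villus. This was a difference of -1.14 ± 0.22 (limma adjusted p = 3.67e-04). At that of Cdk1, the mitotic kinase, it was 34, 33 and 49 against 52, 31 and 17 (-0.75 ± 0.18, adjusted p = 0.00300). Top2a and Cdk1 passed under all alternatives. Ccnb2 (-0.74), Ccne1 (-0.56), Cdc6 (-0.57), Mcm3 (-0.46) and Ube2c (-0.52) were the other 5, and each lost the call after quantile normalisation and with fold enrichment. Cdc6 and Mcm3 each lost it under 8 of 15 alternatives in all. Crypt-only sites lay near Ccnd1 and Ccnd2, which code for G1 cyclins, and near Rrm2 and Mcm5. For Ccnd1 the pileups were 13, 21 and 17 in crypt. Villus-only sites lay in introns near 2 of the 30 genes, Mcm2 (22, 16 and 10) and Mcm6 (28, 27 and 11). A distal site of Cdc20, an activator of the anaphase-promoting complex, was higher in villus with 10, 8 and 8 against 29, 30 and 14 (1.00 ± 0.28, adjusted p = 0.00901), though not without villus replicate 2. At equal numbers of peaks 2 genes of the list had a crypt-only and 1 a villus-only site. The promoter of Mki67, the proliferation marker, was open in all 6 libraries, with a difference of -0.48 that did not pass (adjusted p = 0.0552).

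Notch pathway and lineage genes had crypt-only sites at 4 of 18 genes and a villus-only site at 1. The promoter of Notch1, the receptor that keeps progenitors from secretory fate, had a peak in the 3 crypt libraries with 14, 25 and 15 and in no villus library. The same held for Mfng, which codes for a glycosyltransferase that modifies Notch receptors, with 13, 13 and 17. Crypt-only sites also lay beside promoters that were open throughout, at Hes6 (15, 13 and 10) and at Jag1, a Notch ligand (27, 22 and 19 in an intron). Numb, a Notch inhibitor, had an intronic villus-only site with 19, 20 and 12, while its promoter was higher in crypt (52, 65 and 61 against 66, 69 and 22, -0.76 ± 0.16, limma adjusted p = 6.36e-04). The Numb promoter lost the call after quantile normalisation.

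Many markers of Paneth and enteroendocrine cells had no promoter peak, and a few had peaks in crypt alone. Of 17 Paneth and antimicrobial genes, 10 had no promoter peak in any library (58.8%, beside 40.4% of all genes), among them Lyz2, Ang4 and the defensins listed. Mmp7, the protease that processes Paneth cell defensins, had a crypt-only site 2.43 kb upstream with 12, 13 and 9. It was the only gene of the 17 with such a site (5.88%, beside 4.23% of all genes). Of 22 enteroendocrine genes, 12 had no promoter peak, and Chgb (11, 11 and 9) and Isl1 (10, 15 and 12) had crypt-only promoters. The enteroendocrine list had 0 villus-only sites within 10 kb, but within 50 kb it had 3 crypt-only and 5 villus-only sites. At equal numbers of peaks 1 of its genes had a crypt-only site (4.55%, beside 4.23% of all genes). Of 18 goblet cell genes, 6 had no promoter peak (33.3%), Muc2, Tff3 and Spdef included, 2 had crypt-only sites and 2, Agr2 and Spink4, villus-only sites, and Clca1 had a peak in 3 crypt and 0 villus libraries (10, 10 and 17). The tuft cell list had 2 villus-only sites, near Gnat3 and Sh2d6, and 0 crypt-only sites. A second site near Sh2d6 was open in all 6 libraries with 12, 12 and 17 in crypt and 65, 49 and 26 in villus. Relative to the library medians it was higher in villus (1.28 ± 0.21, limma adjusted p = 5.64e-05), and its sequence holds AP-1, BACH/MAF and ASCL/bHLH matches.

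Genes of nutrient transport showed the opposite pattern and the highest share of any list, with villus-only sites at 10 of 25 genes against 2 with crypt-only sites. At equal numbers of peaks the counts were 10 and 1. The promoter of Slc2a2, the basolateral hexose carrier GLUT2, had 33, 32 and 12 in the villus libraries and no peak in crypt. Aqp7, a glycerol channel, had 3 villus-only sites, the promoter with 26, 23 and 10 among them. Slc3a1, a subunit of the cystine and dibasic amino acid transporter, had a villus-only site with 40, 29 and 18, and Slc7a9, its partner, had another with 25, 16 and 10. The others lay near Slc15a1, Slc6a19, Slc7a8, Slc36a1, Slc26a3 and Slc26a6. Slc1a1 and Slc7a8 had the crypt-only sites.

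Promoters of 3 transporters were higher in villus, against 3 higher in crypt, of 16 tested. For Slc46a1, the proton-coupled folate transporter, pileup was 11, 13 and 12 in crypt and 46, 44 and 19 in villus (1.08 ± 0.23, limma adjusted p = 0.00107). For Slc15a1, the peptide transporter PEPT1, it was 16, 13 and 11 against 39, 40 and 17 (0.76 ± 0.24, adjusted p = 0.0222). For Slc5a1, the sodium-glucose transporter SGLT1, it was 17, 20 and 11 against 49, 42 and 17 (0.66 ± 0.24, adjusted p = 0.0434). All 3 lost the call with fold enrichment in place of pileup. Slc15a1 lost it under 3 of 14 alternatives in all, and Slc5a1 under 7 of 15. The promoters higher in crypt were those of Slc11a2 (-0.64), Slc20a1 (-0.67) and Slc26a6 (-0.67), and Slc11a2 and Slc20a1 lost the call after quantile normalisation and Slc26a6 without crypt replicate 2 or 3 or villus replicate 1 or 3.

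Other enterocyte lists had villus-only sites at several genes and few crypt-only sites. In brush border digestion 4 of 24 genes had villus-only sites, Ggt1, Vil1, Cdhr2 and Mep1b, and 0 had crypt-only sites (5 and 2 at equal numbers of peaks). A promoter site of Ggt1, the gamma-glutamyltransferase, had 43, 37 and 20 in villus with an HNF4A match, and an intronic site of Vil1, which codes for the microvillus protein villin, had 29, 30 and 20 with CDX2 and IRF matches. Over the whole promoter, no gene of this list, Ggt1 included, had peaks in 3 villus and 0 crypt libraries. Dpp4, a brush border peptidase, had a distal site with 18, 17 and 18 in crypt and 60, 50 and 27 in villus (0.88 ± 0.19, limma adjusted p = 0.00132). The promoters of the enterocyte markers Lct and Alpi had peaks in 0 crypt and 2 villus and in 2 crypt and 3 villus libraries. Sis, the sucrase-isomaltase gene, ran the other way at its promoter with 26, 29 and 29 against 50, 25 and 12 (-0.59 ± 0.21, limma adjusted p = 0.0379). The Sis call was lost under 8 of 15 alternatives, quantile normalisation among them.

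In lipid absorption and chylomicron assembly 6 of 30 genes had villus-only sites and 0 had crypt-only sites (9 and 0 at equal numbers of peaks). Without crypt replicate 2, 4 genes had crypt-only sites. Apoa4, a chylomicron apolipoprotein, had 40, 37 and 17 at a site 3.42 kb from its TSS. Mttp, the transfer protein that loads lipid onto apolipoprotein B, had an intronic villus-only site with 39, 28 and 10, and Fabp2, the intestinal fatty acid binding protein, another with 29, 19 and 10. Agpat2 had 2 such sites and Acsl1 and Slc27a4 1 each. At Acsl5 and Acsl1, which code for acyl-CoA synthetases, promoter and distal site parted. The promoter of Acsl5 had a peak in 3 crypt libraries (12, 23 and 16) and 0 villus libraries, while an intronic site of the gene was higher in villus (12, 11 and 18 against 62, 42 and 17, 0.99 ± 0.23, limma adjusted p = 0.00208). The promoter of Acsl1 was higher in crypt (73, 64 and 59 against 64, 53 and 19, -1.11 ± 0.15, adjusted p = 9.58e-06) beside its villus-only intronic site (26, 21 and 15).

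Xenobiotic metabolism had villus-only sites at 6 of 30 genes and a crypt-only site at 1. The promoter of Cyp3a11, the main intestinal CYP3A gene, was villus-only with 30, 19 and 14, and a site 3.93 kb upstream of Ahr, the dioxin receptor gene, had 55, 34 and 18 with an AP-1 match. Of 19 tested promoters of the list 2 were higher in villus and 2 in crypt, with a median of -0.17. Those of Cyp2b10 (0.81, limma adjusted p = 0.00511) and Gsta1 (0.83, adjusted p = 0.00528) were higher in villus and those of Cyp3a13 (-0.68, adjusted p = 0.0361) and Sult1b1 (-0.65, adjusted p = 0.0204) in crypt, and none of the 4 passed with fold enrichment, nor either crypt call without crypt replicate 2 or villus replicate 3. Among villus tip genes 4 of 19 had villus-only sites, Krt20, Ada, Apoa4 and Rhoc, and 1 had a crypt-only site. The promoter of Krt20, the keratin of mature villus cells, had 38, 30 and 13 in villus and no peak in crypt.

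**Figure D4:**
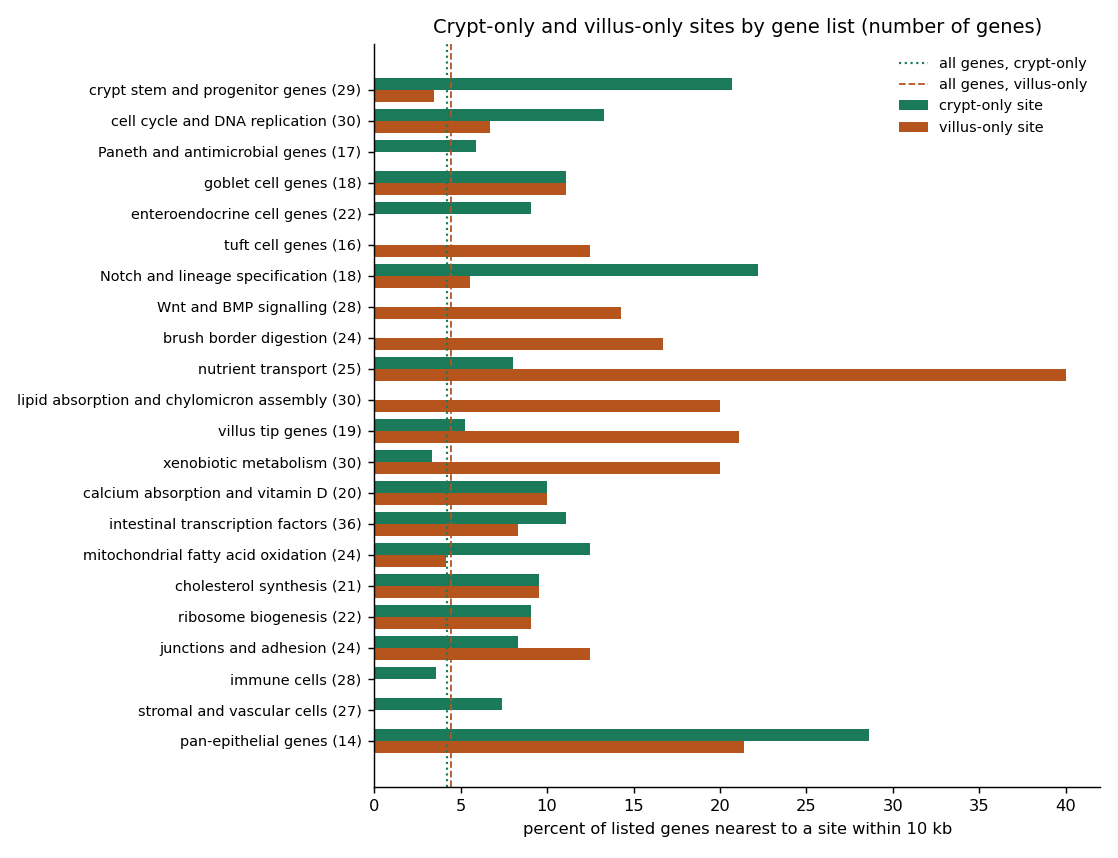
Percent of the genes of each list (number of genes in brackets) that are nearest, within 10 kb, to a crypt-only site and to a villus-only site, with lines for all protein-coding genes at 4.23% and 4.45%. Nutrient transport has the highest villus-only share, at 40%, and stem and Notch genes stand at 20.7% and 22.2% for crypt-only sites, under the 28.6% of the pan-epithelial genes. The lists hold 14 to 36 genes, so 1 gene moves a bar by several points.

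Wnt and BMP signalling genes, which act against each other along the crypt-villus axis, had 7 villus-only sites near 4 of 28 genes and 0 crypt-only sites. Smad4, the common mediator of BMP signals, had 3 of them with pileups of 38, 33 and 13 in the intronic one, 23, 24 and 12 at the promoter and 25, 29 and 12 upstream. It was among 7 genes of the genome with 3 or more villus-only sites. Over the whole promoter, no gene of this list, Smad4 included, had peaks in 3 villus and 0 crypt libraries. Bmpr1a, a BMP receptor, had 2 intronic sites, and Smad6 and Lrp6 had 1 each. A site 8.69 kb upstream of Ctnnb1, the gene of beta-catenin, was higher in villus with 14, 11 and 16 against 53, 48 and 21 (1.07 ± 0.22, limma adjusted p = 6.96e-04), and holds AP-1 and TCF/LEF matches. It passed under all alternatives. The promoters of Id1 (-0.65), Fzd5 (-0.58), Axin1 (-0.56) and Smad6 (-0.48) were higher in crypt and lost the call after quantile normalisation. Smad6 lost it under 9 of 15 alternatives in all. Without crypt replicate 2, 3 genes of the list had crypt-only sites.

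Promoters of intestinal transcription factors were mostly shared, with peaks in all 6 libraries at 30 of 36 genes (83.3%, beside 39.5% of all genes). Cdx2, Hnf4a, Hnf4g, Gata4, Gata6 and Klf5 were among them. Other lists stood higher, with 90.5% in cholesterol synthesis and 90.9% in ribosome biogenesis. Of the 26 tested promoters of intestinal transcription factors, 3 were higher in crypt and 0 in villus, beside 18.3% and 1.23% of all tested promoters. The 3 were those of Ppard, Ppara and Esrra, nuclear receptor genes of fatty acid metabolism. For Ppard the promoter had 26, 39 and 38 against 49, 29 and 13 (-0.77 ± 0.20, limma adjusted p = 0.00492), and an intronic site 55, 49 and 52 against 49, 40 and 17 (-1.10 ± 0.16, adjusted p = 1.42e-05). Both Ppard sites passed under all alternatives, while the Ppara and Esrra promoters did not after quantile normalisation. Distal sites of Hnf4g (0.95, adjusted p = 0.00710), Pparg (0.99, adjusted p = 0.00679), Nr1h4 (0.66, adjusted p = 0.0357) and Tcf7l2 (0.74, adjusted p = 0.0392) were higher in villus, and each lost the call under at least 1 alternative.

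Genes of calcium absorption and vitamin D action had crypt-only sites at 2 of 20 genes and villus-only sites at 2. The Vdr promoter, of the vitamin D receptor, had 18, 17 and 21 in crypt and 34 and 34 in villus replicates 1 and 2, with no peak in villus replicate 3. Trpv6, the apical calcium channel, had no promoter peak in any library, and S100g, which codes for calbindin D9k, had peaks in 2 crypt libraries and 1 villus library. The Calb1 promoter was crypt-only with 14, 12 and 11. Slc30a10, a manganese exporter gene and vitamin D target, had an intronic villus-only site with 17, 24 and 11, and a site 5.77 kb upstream that was higher in villus with 7, 10 and 12 against 54, 29 and 13 (1.12 ± 0.27, limma adjusted p = 0.00308). The Atp2b1 promoter, of the basolateral calcium pump, was higher in crypt (-0.57, adjusted p = 0.00794) except after quantile normalisation, with fold enrichment or without crypt replicate 2, and an intronic site of the gene was villus-only with 21, 18 and 13. Of the 7 promoters tested, the only call towards villus was that of Slc37a2 (0.63, adjusted p = 0.0445), which was lost under 7 of 14 alternatives.

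The remaining metabolic and structural lists had crypt-only sites at 8.33% to 12.5% of genes and villus-only sites at 4.17% to 12.5%. Their promoter calls were mostly towards crypt, as were those of all genes. In mitochondrial fatty acid oxidation 3 of 24 genes had crypt-only sites and 1 a villus-only site, and the Acaa2 promoter was higher in crypt (33, 30 and 42 against 27, 22 and 14, -1.19 ± 0.21, limma adjusted p = 1.01e-04), though not with fold enrichment. In cholesterol synthesis 6 of 19 tested promoters were higher in crypt and 0 in villus, among them those of Lss, Mvk, Insig1, Srebf1 and Msmo1. Without villus replicate 2 Srebf1 lost the call, and after quantile normalisation the other 4 named did. Msmo1 lost it under 9 of 15 alternatives in all. In ribosome biogenesis it was 2 and 1 of 20, and in junctions and adhesion 4 and 1 of 18. Desmocollin 2 (Dsc2) had the villus-higher promoter of the last list (0.78, adjusted p = 0.0106), though not with fold enrichment.

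**Figure D5:**
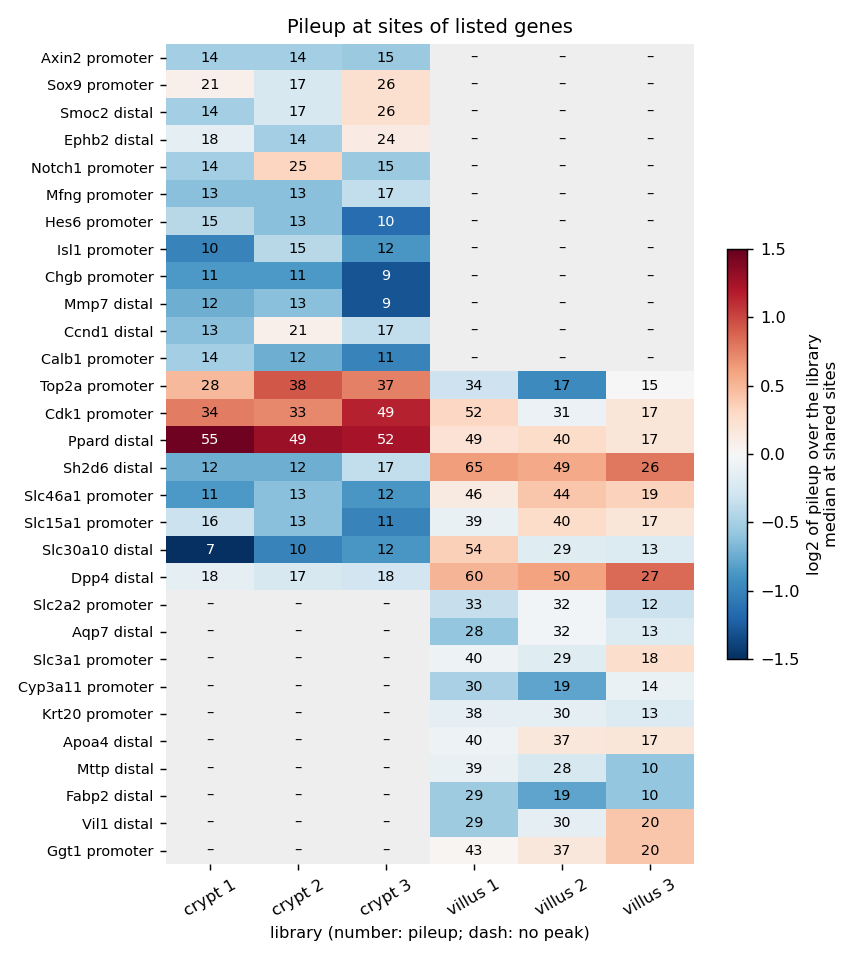
Pileup (number in each cell) at 30 sites of listed genes in the 6 libraries, coloured by the log2 of the pileup over the library's median at shared sites, with grey cells and dashes where no peak was called. The upper 12 sites have peaks in the 3 crypt libraries alone, the lower 10 in the 3 villus libraries alone, and the 8 between have peaks in all 6 and passed the limma test. The sites were chosen for display after their values were seen.

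Most markers of other cells that the preparations could hold had no promoter peak. Of 28 immune genes, 27 had no promoter peak in any library (96.4%, beside 40.4% of all genes), Ptprc, Cd3e, Cd8a and Cd79a among them, and Cd79b had a peak in crypt replicate 3 alone. Of 27 stromal and vascular genes, 20 had none (74.1%), including Col3a1, Acta2, Pecam1 and Cdh5, while Pdgfra and Col1a1 each had a peak in 3 of the 6 libraries. Near these lists there were 3 crypt-only sites (Itgam, Col1a1 and Lyve1) and 0 villus-only sites. An intronic site nearest to Zap70, a T cell kinase gene, was higher in villus with 8, 12 and 13 against 32, 34 and 14 (0.79 ± 0.27, limma adjusted p = 0.0308), though not with fold enrichment or without crypt replicate 1, villus replicate 2 or villus replicate 3. Pan-epithelial genes had promoter peaks in all 6 libraries at 10 of 14 (71.4%, beside 39.5% of all genes), Epcam, Krt8, Cdh1, Cdx2 and Vil1 included. The part of other cells in the differences was not tested.

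Among the crypt-only and villus-only sites within 10 kb of a TSS, those of highest pileup lay near genes mostly outside these lists. Near Plxna2, a semaphorin receptor gene whose sequence is shown above, the crypt-only site had 39, 39 and 44. Crypt-only sites near Iapp had 27, 33 and 28, and near Fhit 35, 21 and 32. The others among the 10 highest lay near Aim2, Csda, Brwd1, Fam132b, Fam83e, Phldb2 and Slc6a15. The villus-only site near Lpin3 had 72, 61 and 26. It was followed by sites near Rsph3b (58, 49 and 22), Fam102a (57, 44 and 23), Cerk, Src, Lipe, Bcar3, Eps8l3, 4930404N11Rik and 1300014I06Rik. Slc2a1, the gene of the glucose carrier GLUT1, was among the 3 genes with 3 or more crypt-only sites, and its promoter had 23, 26 and 25 in crypt with no peak in villus, though a villus-only site also lay within 10 kb. The 43 genes with a villus-only promoter also included Cps1, the urea cycle carbamoyl-phosphate synthase gene (23, 26 and 12), G6pc, the gluconeogenic glucose-6-phosphatase (26, 27 and 10), and Fgf15, the enterokine of bile acid feedback (18, 15 and 10). The 246 with a crypt-only promoter included Dnmt1, the maintenance DNA methyltransferase (15, 11 and 31), Fzd2, a Wnt receptor (16, 19 and 22), and Bcl2, an inhibitor of apoptosis (18, 15 and 20). These 6 were picked from the genes of each class after their values had been seen.

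Among sites open in all 6 libraries and within 10 kb of a TSS, the largest distal villus excess was near Ccdc73, with 13, 10 and 7 in crypt and 66, 51 and 26 in villus (1.78 ± 0.25, limma adjusted p = 9.58e-06). Near Saa4, of the serum amyloid A family, the values were 5, 8 and 10 against 45, 34 and 18 (1.62 ± 0.28, adjusted p = 9.51e-05). Near Cryzl1 they were 15, 12 and 7 against 64, 53 and 20 (1.50), and near Tmem229b 20, 10 and 10 against 70, 53 and 27 (1.47). Of the 10 largest distal villus excesses 7 held an AP-1 match. The largest promoter excesses in villus were at Osbpl1a (6, 13 and 8 against 66, 51 and 16, 1.73 ± 0.27, adjusted p = 3.92e-05), Gabarapl1, an autophagy gene (1.42), Krtap2-4 (1.37) and Gpt, the alanine aminotransferase gene (1.28). In crypt the largest promoter excesses were at Evi5l (41, 50 and 46 against 19, 19 and 15, -1.79 ± 0.22, adjusted p = 3.19e-06), Socs6, a suppressor of cytokine signalling (-1.73), and Mgmt, the DNA alkyltransferase gene (-1.68). The largest distal one within 10 kb of a TSS was near Lpin1 (22, 33 and 34 against 13, 16 and 9, -1.65 ± 0.26, adjusted p = 3.88e-05). The 12 sites named in this paragraph passed under all alternatives run on the limma test.

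The lists from pooled alignments have no replicate behind them. Of 74734 pooled crypt peaks 62.6% overlapped a pooled villus peak by 1 bp, and of 64782 pooled villus peaks 66.9% overlapped a pooled crypt peak. The 27979 pooled crypt peaks outside the villus list were at promoters in 13.5% of cases, and the 21432 villus peaks outside the crypt list in 8.45%. Of these, 9.72% and 10.0% lay at sites with a peak in 3 libraries of their own compartment and 0 of the other. A larger part, 31.8% and 33.1%, met no peak in any single library of their own compartment. In both compartments more of the unshared pooled peaks met no peak of their own libraries than met the crypt-only or villus-only pattern.

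VDR ChIP-seq of the same compartments, from mice given 1,25(OH)2D3 at 10 ng/g for 1 h and labelled 4 to 6 weeks old, gave a second readout at these sites. The methods of the study give these mice an older age than the labels do. Among VDR peaks that fell on crypt-only or villus-only sites, the villus-only share was 57.3%, 53.3%, 65.0% and 46.8% in crypt VDR replicates 1 to 4 and 73.2%, 77.7%, 86.5% and 81.5% in villus VDR replicates 1 to 4. The groups did not overlap, and villus was higher by 24.14 points (two-sided exact permutation test, p = 0.0286, n = 4 against 4, the smallest p possible). The smallest samples, crypt VDR replicate 3 and villus VDR replicate 3, had 14 and 7 such peaks at crypt-only and 26 and 45 at villus-only sites. With the sites defined at equal numbers of peaks the difference was 16.6 points and did not pass (exact permutation p = 0.0857).

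Colon epithelium, in 3 further ATAC-seq libraries, had peaks at 8.77%, 14% and 19.6% of the crypt-only sites and at 10.8%, 18.0% and 23.4% of the villus-only sites. At the sites open in all 6 crypt and villus libraries the shares were 68.3% to 81.2%. Among all union sites they were 18.4%, 23.4% and 27.2%. Of distal sites alone, 7.98%, 12.9% and 18.5% of the crypt-only, 10.3%, 17.6% and 23.1% of the villus-only and 10.7%, 15.7% and 19.7% of all union sites had a colon peak. The colon libraries held fewer peaks (20265, 26920 and 31700).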

How the data were processed

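ATAC-seq reads were aligned to mm9 and peaks called by the authors, whose processing notes name cutadapt 1.9.1, Bowtie2 2.2.6, SAMtools 0.1.19, bedtools 2.17.0, Picard 2.18.27 and MACS2 2.1.0.20150731, with a q value cutoff of 0.05 in MACS2. The pileup is a signal in the deposited lists that counts tags, extended by a length set for each library (68 to 145 bp), over a summit with 1 tag kept per position, and the authors did not scale it to depth. The deposited fold enrichment is a ratio, the pileup over the local background of the same library. The authors give p and q values on a −log10 scale, and q was used as a threshold in alternatives. The libraries kept 14376006 to 29247820 tags after 40.9% to 62.1% were removed as duplicates by the authors' caller. Left out here were 1089 to 1447 listed peaks per library. They lay on the mitochondrial chromosome or overlapped a pooled crypt or villus peak absent from the deposited pooled intervals. No pair of lists was identical.

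Peaks of the 6 libraries were joined into sites by 1 bp overlap and placed on the mm9 annotation of 22380 protein-coding genes. Promoters reach 1 kb either side of a TSS, and a site's gene is that of the nearest TSS within 10 kb. Pileup at sites called in all 6 libraries was tested with limma 3.58.1 (R 4.3.3, eBayes with trend, Benjamini-Hochberg over all sites). Library shares were compared by exact permutation tests, and 24 motifs were sought as fixed letters, on both strands, in the 200 bp at distal summits. Overlap and limma steps were tested on simulated data. Scripts ran in Python 3.11.15 with pysam 0.24.0, scipy 1.17.1, numpy 2.4.6 and matplotlib 3.10.9. Replicates are numbered as in the labels.

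The 22 gene lists (522 entries found, 7 by an older symbol, 6 not found), the motifs and the tests were chosen with earlier results of these data known. Named genes are members of the lists, the nearest genes of the 10 crypt-only and 10 villus-only sites of highest mean pileup (each library divided by its median) and of the 10 largest differences in each direction past the limma threshold, promoters and distal sites apart, and the 10 genes with most sites of either class, ties ordered by sites within 50 kb and then by name. Sites dropped by the authors, a covariate for tag extension, sites far under the pileup ceiling, the removal of 2 libraries together and the pairing of VDR samples were added as alternatives after seeing the data, and the AP-1 genes and the sites of the heat map were chosen after their values were seen. The replicate numbers did not pair the ATAC-seq libraries. Some genes and a motif are not reported here.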

Additional observations from a re-analysis of the deposited data

Results flagged for a closer look

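Crypt VDR replicate 1 had 13381 VDR peaks, far above the other 3 crypt samples (1136 to 2480), and stood out by Dixon's test among the 4 groups tested. Chance alone would mark about 1 in 20 such groups.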

How the results depend on the processing

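The peak lists hold no counts outside peaks, so the absence of a peak means only that none passed the authors' threshold at that library's depth. The number of peaks per library, 0.01 higher in villus on the log2 scale, ranged from -0.20 to 0.16 when a library was left out and so had no stable direction. Leaving out a library gave 3425 to 6412 crypt-only and 3251 to 7089 villus-only sites, and at equal numbers of peaks 3286 to 4498 and 3631 to 5416, since a class then rests on fewer libraries. A −log10 q of at least 5 left 1975 crypt-only sites, and 50% cover of a site left 1890 villus-only sites. In the limma test, fold enrichment called 638 sites higher in villus and 698 in crypt, and sites called in at least 2 libraries of each compartment gave 1884 and 3155. Quantile normalisation called 1116 sites higher in crypt, and the sites above the median pileup 1023. Without a library 622 to 1191 sites were higher in villus and 1224 to 2335 in crypt, both lowest without villus replicate 2, and 1374 were higher in crypt without crypt replicate 2. With the replicate numbers as a replicate block the counts were 1322 and 2238. Deviations of same-numbered libraries correlated at 0.10, -0.05 and 0.04, so the numbers do not pair the libraries, and all 119 named sites with a test passed with the block. Over all alternatives run, none of these 119 sites changed direction, 1445 of their values passed and 300 did not. These sites had already passed the main test, and the alternatives refit largely the same libraries. The tally therefore does not measure how reliable the calls are. The motifs higher in villus without overlap numbered 2 to 5 without a library, the 5 without villus replicate 3. The VDR difference was 16.6 points with sites at equal peak numbers (exact permutation p = 0.0857) and 21.2 to 27.3 points without a VDR sample (exact permutation p = 0.0571, the smallest possible). With VDR samples paired by number as a replicate block it was 24.1 points (exact permutation p = 0.125, the smallest possible). Overlap of the pooled lists was 58.5% of crypt and 50.1% of villus peaks at 50% cover, and 68.0% and 62.6% at equal numbers. With genes sought within 50 kb, 91 crypt-only and 139 villus-only sites fell to listed genes, in place of 43 and 61. The cause of these shifts was not tested.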
